A study of Mus musculus with 4 samples.

Results

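The *Hoxb* cluster genes *Hoxb2*, *Hoxb3*, *Hoxb4*, *Hoxb5*, *Hoxb6*, *Hoxb7*, *Hoxb8*, *Hoxb9* and *Hoxb13* were followed in single cells from the lamina propria of the mouse small intestine and colon. They were taken by name and make up 9 of the 28692 genes counted. Both intestines came from female C57BL6/Nrj mice, which were untreated and 8 to 10 weeks old, and no allele or agent set the groups apart. Cells of 3 mice were pooled per experiment, and each intestine gave 2 droplet libraries (replicates 1 and 2). The muscle layer had been stripped off. Live cells were then sorted for Itgb1 and against CD45, Ter119, CD31, BP3, EpCAM and L1CAM, so that mesenchymal stromal cells remained. The values are unique molecular identifiers (UMIs), which count captured RNA molecules. Levels are given as CPM, the UMIs of a gene per 1000000 UMIs of the cells summed.

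Hox genes encode homeodomain transcription factors that lie in clusters, and their order along the chromosome matches the order in which they are switched on along the head to tail axis of the embryo. Low numbered genes have anterior borders of expression and high numbered genes posterior ones. In the gut, the mesenchyme around the epithelial tube carries a Hox pattern that divides it into regions, and adult fibroblasts of many organs keep a part of their embryonic pattern.

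The files for small intestine held 14341443 and 45640122 UMIs (replicates 1 and 2) and those for colon 22076000 and 52269372 UMIs. After filtering, 1808 to 14350 cells remained per library, with a median of 2734.5 to 8810 UMIs per cell. The replicate 1 libraries of both intestines had fewer cells and more UMIs per cell than the replicate 2 libraries. Of all deposited barcodes, colon and small intestine replicate 2 shared 69, colon and small intestine replicate 1 shared 8, and the other pairs at most 2.

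Cells were placed in classes by counting detected markers, with no Hox gene among the markers. Fibroblasts (FB) were divided into PDGFRαhi FB, the subset that lies close to the epithelium and secretes bone morphogenetic proteins, CD81+ FB, a deeper subset that carries *Cd81*, *Grem1*, *Pi16* or *Ackr4*, and the remaining FB that passed neither gate. Remaining FB counted 571 and 10586 cells in small intestine and 718 and 6172 in colon (replicates 1 and 2 throughout). PDGFRαhi FB counted 180 and 908 cells in small intestine and 778 and 2988 in colon. CD81+ FB counted 418 and 2411 against 223 and 1727. The gates put together cells on a continuum, since 186 of 418, 1455 of 2411, 92 of 223 and 968 of 1727 CD81+ FB carried exactly the minimum of 4 markers.

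Marker levels of these classes are given as a description. *Cd81*, *Bmp5*, *Myh11*, *Pecam1* and *Rgs5* were themselves counted in the gates, so their levels do not check the labels. In CD81+ FB, *Cd81* reached 379 and 392 CPM in small intestine and 573 and 610 CPM in colon, against 10.2, 25.2, 78.8 and 122 CPM in remaining FB. In PDGFRαhi FB, *Bmp5* was at 499 to 550 CPM in the 4 libraries. Smooth muscle cells (SMC) held *Myh11*, the smooth muscle myosin, at 3468 to 4104 CPM, but also *Dcn*, a fibroblast proteoglycan, at 635 to 2937 CPM. *Pdgfra* was at 0, 0, 0 and 4.45 CPM in SMC. Although CD31+ cells had been sorted out, 340 and 233 cells of the replicate 1 libraries (and 1 and 20 of the replicate 2 libraries) passed the endothelial gate, and *Pecam1*, which encodes CD31, was at 747 to 1150 CPM in the 3 libraries with at least 20 such cells. These cells are reported here as endothelium.

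The 9 genes lie on the plus strand of chromosome 11 in mm10. *Hoxb13* (ENSMUSG00000049604, 96194316 to 96197447) lies apart at the low-coordinate end. *Hoxb9* (96271457 to 96276595), *Hoxb8* (96281905 to 96285315), *Hoxb7* (96286623 to 96290162) and *Hoxb6* (96292476 to 96301569) follow. *Hoxb5* (96303336 to 96306121), *Hoxb4* (96318267 to 96321638), *Hoxb3* (96323326 to 96347930) and *Hoxb2* (96350525 to 96354012) close the row. Exons of *Hoxb5* overlap those of the antisense gene *Hoxb5os*, and exons of *Hoxb2* and *Hoxb3* overlap those of *Hoxb3os*. The sources used here do not say whether counting used the strand, so UMIs of these overlapping pairs are uncertain.

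Promoter sequence was matched for 2 of the 9 genes, *Hoxb8* and *Hoxb4* (RefSeq, GRCm38.p6, plus strand). Both are shown because *Hoxb8* is the most posterior of the genes that were lower in colonic fibroblasts and *Hoxb4* the one that passed the test in remaining FB. The 250 bases before each annotated start are given, with matches to searched motifs in capitals.
Hoxb8, chr11:96281655-96281904: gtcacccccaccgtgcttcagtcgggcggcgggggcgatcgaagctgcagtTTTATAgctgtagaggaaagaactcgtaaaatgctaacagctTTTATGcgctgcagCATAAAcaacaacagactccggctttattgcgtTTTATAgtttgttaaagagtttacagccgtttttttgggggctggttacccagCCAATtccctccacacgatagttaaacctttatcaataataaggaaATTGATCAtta
Hoxb4, chr11:96318017-96318266: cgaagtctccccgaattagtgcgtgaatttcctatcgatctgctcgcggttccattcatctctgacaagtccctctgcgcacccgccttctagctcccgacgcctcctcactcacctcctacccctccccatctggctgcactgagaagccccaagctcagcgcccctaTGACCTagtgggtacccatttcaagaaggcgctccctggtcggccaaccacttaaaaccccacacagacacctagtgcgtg

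Motifs were searched on both strands. The *Hoxb8* window held the Cdx core TTTATG, the site of caudal homeodomain factors, on the same strand with its first base 157 bases before the start and on the opposite strand at 143. It also held TATAAA on the opposite strand at 199 and 110, CCAAT at 57, and the joint site of Hox and Pbx proteins, TGATNNAT, on the opposite strand at 11. The *Hoxb4* window held the hexamer core AGGTCA of retinoic acid receptor sites on the opposite strand at 81, and no direct repeat of it spaced by 5 bases, the usual retinoic acid response element. Among 32851 promoter windows of the same length, 10.8% held TTTATG, 12.4% TATAAA, 33.8% CCAAT, 7.68% TGATNNAT, 14.0% AGGTCA and 0.00913% that direct repeat. The GC content was 44.4% for *Hoxb8* and 58% for *Hoxb4*, with 12 and 14 CpG, against a median of 52.4% and 6 CpG over all windows.

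Whether *Hoxb* genes differ between the colon and the small intestine was asked first over all fibroblasts (1169 and 13905 cells in small intestine, 1719 and 10887 in colon). From *Hoxb2* to *Hoxb8*, each gene was lower in both colon libraries than in both small intestinal libraries. With so few libraries a gene can take such an order by chance, and the share of all genes that did was not counted. *Hoxb4* was at 80.4 and 72.2 CPM in small intestine against 8.50 and 10.9 CPM in colon, a ratio of summed UMIs of 7.20 (95% counting interval 6.61 to 7.86). *Hoxb2* was at 38.9 and 28.1 CPM against 6.06 and 7.28 CPM, a ratio of 4.34. For both genes the gap between the intestines was wider than that between the libraries of an intestine.

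The other genes of the middle of the cluster showed the same order. *Hoxb3* was at 11.1 and 20.6 CPM in small intestinal fibroblasts and at 0.979 and 2.27 CPM in colonic ones. *Hoxb5* was at 23.2 and 19.4 against 1.22 and 2.50 CPM. *Hoxb6* was at 9.12 and 7.98 CPM in small intestine against 0.428 and 1.43 CPM in colon. For none of these genes did the libraries of the intestines overlap, with the same limit. *Hoxb7* was at 14.0 and 15.7 CPM against 0.673 and 1.21 CPM, a ratio of 14.5 (22.9 without colon replicate 2). *Hoxb8* was at 4.46 and 1.35 CPM (42 and 53 UMIs) in small intestinal fibroblasts, so its small intestinal libraries were unlike, and had 1 UMI in those of each colon library. The ratio was 58.9 (15.9 to 493), and with a library left out it ran from 31.9, when colon replicate 2 was dropped, to 134, when small intestine replicate 2 was. *Hoxb9* had 0 and 1 against 0 and 2 UMIs, and *Hoxb13* had 0 UMIs in fibroblasts of every library.

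In the quasi-likelihood test of edgeR across 13900 genes, with calls made at an adjusted p under 0.05 and beyond 1.5 in either direction on the log2 scale, 0 of the 7 *Hoxb* genes tested passed, where 0.381% of all genes did. All 7 had an unadjusted p under 0.05, as did 11.4% of all genes, and DESeq2 called 7, where it called 4.06% of all genes. The log2 fold change of colon over small intestine was -3.03 ± 0.28 (SE, n = 2 libraries against 2) for *Hoxb4* with an adjusted p of 0.0517 in edgeR. It was -2.38 ± 0.30 for *Hoxb2* (adjusted p = 0.0789 in edgeR) and -3.98 ± 0.42 for *Hoxb7* (0.0596). The median over the 7 genes was -3.29, against 0.00298 over all genes. With the replicate number as a block edgeR called all 7, along with a larger share of all genes. The calls also depended on which library was left out. With a library left out, the ratio of summed UMIs ran from 6.78 to 8.68 for *Hoxb4* and from 4.04 to 5.60 for *Hoxb2*.

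The fibroblast subsets were then read separately. PDGFRαhi FB of the colon held few *Hoxb* UMIs. *Hoxb2* was at 67.6 and 58.2 CPM in small intestinal PDGFRαhi FB (114 and 134 UMIs) and at 0.695 and 0.982 CPM in colonic ones (6 and 13 UMIs). The ratio of these measured levels was 71.6 (44.9 to 121), over a colonic level that cannot be told apart from free RNA at this depth. *Hoxb4* was at 41.5 and 65.5 against 3.24 and 2.34 CPM, a ratio of 20.5 (15.3 to 27.9). *Hoxb7* had 29 and 51 UMIs against 2 and 1, a ratio of 146 (48.3 to 724) that ran from 86.6 to 265 with a library left out. All 3 genes were far below the small intestinal range in both colonic libraries.

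Of the rarer genes in PDGFRαhi FB, *Hoxb3* had a ratio of 62.1 (19.5 to 316) and *Hoxb5* one of 82.2 (20.9 to 710), with 3 and 2 UMIs in colon. Without colon replicate 1 these ratios were 37.6 and 49.8, and without colon replicate 2 no colonic UMI of either gene was left. *Hoxb6* and *Hoxb8* had 0 UMIs in colonic PDGFRαhi FB and were at least 29.2-fold and at least 16.4-fold lower there, against a floor of 3 UMIs over both libraries. EdgeR called 3 of 6 tested genes lower in colon, where 1.24% of all 11777 genes were called in either direction. These were *Hoxb2* (log2 fold change -6.01 ± 0.38, adjusted p = 0.0228), *Hoxb4* (-4.13 ± 0.39, adjusted p = 0.0298 in edgeR) and *Hoxb7* (-6.80 ± 0.58, adjusted p = 0.0234 in edgeR, with 3 UMIs in colon). The calls depended on which library was left out, in fits with 1 library in an intestine. With a library left out, the ratio of summed UMIs ran from 63.3 to 89.5 for *Hoxb2* and from 15.4 to 24.3 for *Hoxb4*. With the replicate number as a block edgeR called all 6, along with a larger share of all genes. DESeq2 called 6, where it called 4.17% of all genes.

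CD81+ FB held *Hoxb* UMIs in both intestines. *Hoxb2* was at 24.7 and 23.7 CPM in small intestinal CD81+ FB and at 34.2 and 24.4 CPM in colonic ones, so the libraries of the intestines overlapped. *Hoxb3* was at 7.90 and 17.3 against 7.12 and 6.78 CPM and *Hoxb6* at 8.92 and 8.83 against 3.32 and 5.61 CPM. *Hoxb4* was at 82.6 and 52.0 CPM in small intestine against 28.5 and 25.9 CPM in colon. The gap for *Hoxb4* was narrower than in PDGFRαhi FB, but its libraries did not overlap.

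*Hoxb5* was at 20.7 and 20.8 CPM in small intestinal CD81+ FB against 8.06 and 8.08 CPM in colonic ones, and *Hoxb7* at 9.69 and 14.5 against 3.79 and 3.78 CPM. *Hoxb8* stood apart from its neighbours, with 34 UMIs in small intestine and 1, of replicate 1, in colon. The ratio was 27.3 (4.58 to 1109), and 5.88 without colon replicate 2. EdgeR called 0 of the 7 tested genes in CD81+ FB, where 0.00% of all 11594 genes were called. Of the 7, 5 had an unadjusted p under 0.05, as did 8.14% of all genes, and DESeq2 called 0, where it called 1.79%. With the replicate number as a block edgeR called 2, along with a larger share of all genes. The log2 fold change of *Hoxb2* was 0.16 ± 0.27 (adjusted p = 0.992 in edgeR), that of *Hoxb4* -1.41 ± 0.33 (0.280), that of *Hoxb5* -1.45 ± 0.25 (0.161) and that of *Hoxb7* -1.76 ± 0.35 (0.214).

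In remaining FB the fold changes of *Hoxb2* to *Hoxb7* lay between those of the other 2 subsets. *Hoxb8* could not be placed, since PDGFRαhi FB gave only a bound for it. *Hoxb4* was at 95.3 and 78.6 CPM in small intestine against 9.11 and 10.8 CPM in colon, and *Hoxb2* at 40.8 and 26.9 against 3.75 and 5.20 CPM. *Hoxb7* was at 17.0 and 15.6 against 0.179 and 0.997 CPM. EdgeR called 1 of 7 genes, *Hoxb4* (log2 fold change -3.14 ± 0.27, adjusted p = 0.0459), where 0.310% of all 12905 genes were called. All 7 had an unadjusted p under 0.05 (9.66% of all genes) and DESeq2 called 7 (2.86%). The call of *Hoxb4* was lost with a stricter gate, and without small intestine replicate 2, where 1 library of that intestine is left. With a library left out its ratio of summed UMIs ran from 7.46 to 9.11. With the replicate number as a block edgeR called all 7, along with a larger share of all genes.

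**Figure D1:**
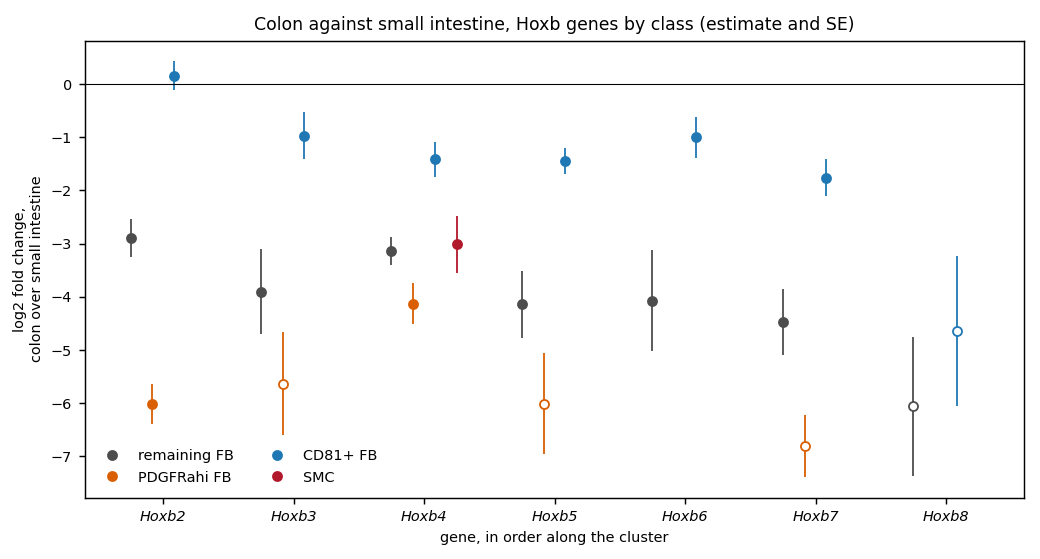
Log2 fold change of colon over small intestine with its SE (vertical axis) for each Hoxb gene in cluster order (horizontal axis) in remaining FB, PDGFRαhi FB, CD81+ FB and SMC, each from 2 libraries against 2. Open points rest on 1 to 3 UMIs in an intestine, and genes with 0 UMIs in an intestine are left out. CD81+ FB sit nearest to 0, at 0.16 for Hoxb2 and -1.41 for Hoxb4, and PDGFRαhi FB lowest, at -6.01 and -4.13.

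Whether subsets of the same library differ was then asked against remaining FB, in 1 edgeR fit of 13272 genes with library as a block. All these comparisons share the remaining FB sums. In the small intestine, no *Hoxb* gene passed the test in CD81+ FB. EdgeR called 0 of 8, where 2.39% of all genes were called, 0 had an unadjusted p under 0.05 (17.8% of all genes), and DESeq2 called 0 (1.55%). For the 7 genes from *Hoxb2* to *Hoxb8* the log2 fold changes of CD81+ FB over remaining FB in small intestine lay between -0.39 (*Hoxb3*) and 0.52 (*Hoxb8*).

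In the colon, CD81+ FB were higher than remaining FB. EdgeR called 5 of 8 genes, each higher, where 3.79% of all genes were called. The log2 fold change of CD81+ FB over remaining FB in colon was 2.57 ± 0.22 for *Hoxb2* (adjusted p = 3.26e-09 in edgeR), 2.23 ± 0.39 for *Hoxb3*, 2.36 ± 0.36 for *Hoxb5*, 2.97 ± 0.50 for *Hoxb6* and 2.26 ± 0.45 for *Hoxb7*. *Hoxb4* (1.47 ± 0.25, adjusted p = 0.000794 in edgeR) passed the adjusted p but not the fold limit. These 6 genes were thus spread over the row from the anterior to the middle of the cluster, with *Hoxb8* and *Hoxb9* too rare to tell.

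The difference of the class effects between the intestines was tested as a class by intestine term. For CD81+ FB against remaining FB, 6 of 8 genes passed, where 0.588% of all genes did. The term (class effect in colon minus that in small intestine, on the log2 scale) was 2.80 ± 0.27 for *Hoxb2* (adjusted p = 9.98e-07 in edgeR), 2.62 ± 0.44 for *Hoxb3*, 1.71 ± 0.31 for *Hoxb4*, 2.41 ± 0.41 for *Hoxb5*, 2.87 ± 0.59 for *Hoxb6* and 2.40 ± 0.49 for *Hoxb7*. DESeq2 called 1 of these terms, where it called 0.105% of all genes. With any 1 library left out edgeR called fewer of these terms, in fits where an intestine is left with 1 library.

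PDGFRαhi FB went the other way in the colon. There 6 of 8 genes were called lower than in remaining FB, where 7.59% of all genes were called, among them *Hoxb2* (-2.56 ± 0.37) and *Hoxb4* (-2.00 ± 0.33). Leaving out either colon library left fewer calls, each time from 1 colon library alone. Without colon replicate 2 the value of *Hoxb7*, among the 6, turned positive. In the small intestine 1 of 8 was called, *Hoxb5* (-1.94 ± 0.32, adjusted p = 7.11e-05 in edgeR), where 8.41% of all genes were called. *Hoxb2* was there higher in PDGFRαhi FB by 0.70 ± 0.18 on the log2 scale (adjusted p = 0.00410 in edgeR), below the fold limit. *Hoxb2* was therefore highest among fibroblasts in the PDGFRαhi subset of the small intestine and lowest in that of the colon. Its class by intestine term was -3.26 ± 0.41 (adjusted p = 6.33e-06 in edgeR) and was the only 1 of 8 called for PDGFRαhi FB, where 2.29% of all genes were called.

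**Figure D2:**
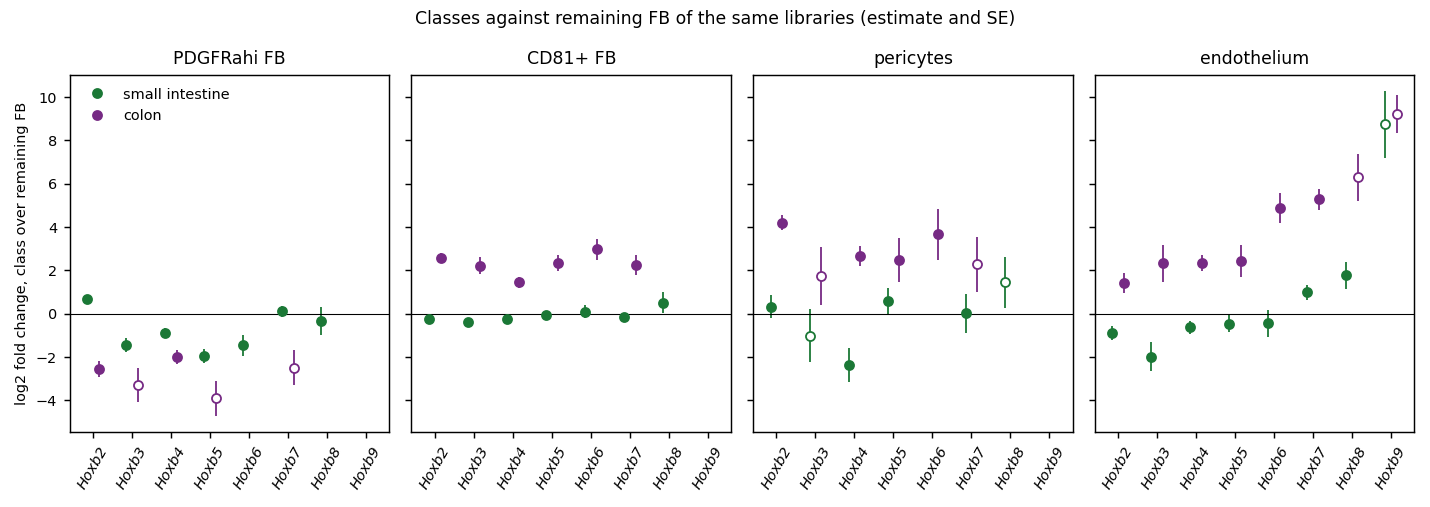
Log2 fold change with its SE of PDGFRαhi FB, CD81+ FB, pericytes and endothelium over remaining FB of the same libraries (vertical axis) for each Hoxb gene (horizontal axis), in small intestine (green) and colon (purple). Open points rest on 1 to 3 UMIs in a class, and genes with 0 UMIs in a class or at most 3 in both are left out. In CD81+ FB the colonic values of Hoxb2 to Hoxb7 lie between 1.47 and 2.97 and the small intestinal ones near 0.

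The level in colonic fibroblasts followed the number of CD81+ FB markers in the cell, taken as a description over cells outside the PDGFRαhi gate. Among cells with 0 markers *Hoxb2* was at 1.40 CPM in both colon libraries. With 3 markers, still below the gate of 4, it was at 6.64 and 12.7 CPM, and with 6 or more at 50.0 and 30.5 CPM. In the small intestine it fell over the same bins, from 52.0 and 35.7 CPM to 18.7 and 15.3 CPM. At 6 or more markers *Hoxb2* was thus higher in both colon libraries than in both small intestinal ones.

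*Hoxb4* ran from 11.2 and 7.57 CPM at 0 markers to 47.9 and 21.3 CPM at 6 or more in colon, with the highest value of replicate 2 (31.6 CPM) at 5 markers. In the small intestine it ended at 60.3 and 42.7 CPM. Cells with more markers were also deeper, with a median of 3380.5 UMIs at 0 markers and 5008 at 6 or more in colon replicate 2, and 3488 and 10171 in small intestine replicate 1. CPM is a share of UMIs, while the number of markers detected in a cell can depend on its depth. The part of depth in the bins was not tested.

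**Figure D3:**
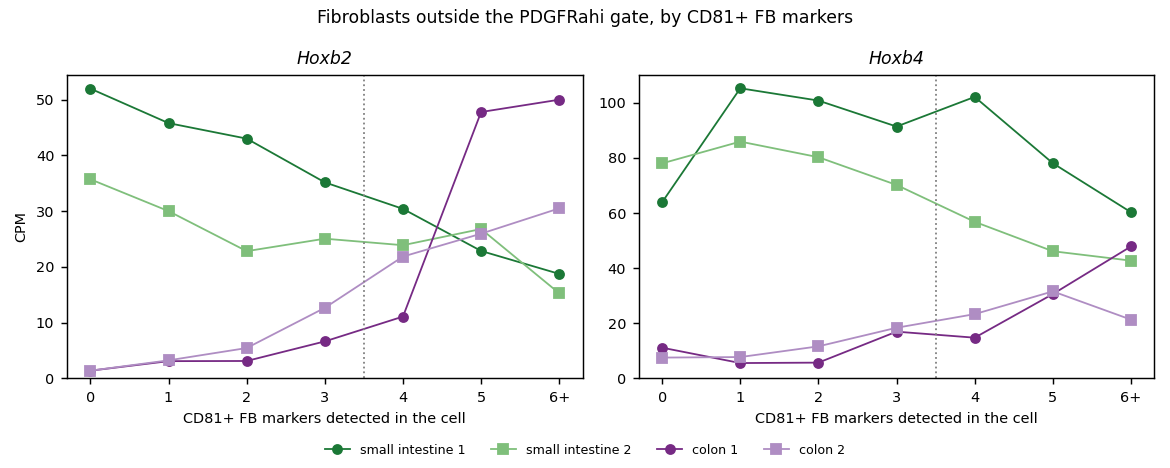
CPM of Hoxb2 and Hoxb4 (vertical axes) in fibroblasts outside the PDGFRαhi gate by the number of CD81+ FB markers detected in the cell (horizontal axis, 0 to 6 or more), with 1 line per library and a dotted line at the gate. Hoxb2 rises in colon from 1.40 CPM to 50.0 and 30.5 CPM and falls in small intestine from 52.0 and 35.7 CPM to 18.7 and 15.3 CPM.

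More than its part of the *Hoxb* UMIs of colonic fibroblasts came from the CD81+ subset. CD81+ FB held 12.9% and 17.4% of all fibroblast UMIs of colon replicates 1 and 2, but 61.4% (180 of 293) and 50.7% (572 of 1128) of their *Hoxb* UMIs. PDGFRαhi FB held 52.9% and 30.1% of the fibroblast UMIs and 12.3% and 4.43% of the *Hoxb* UMIs. In the small intestine, CD81+ FB held 41.6% and 21.1% of the fibroblast UMIs and 36.6% and 17.7% of the *Hoxb* UMIs. There the *Hoxb* UMIs were thus spread over the subsets nearly as all UMIs were.

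**Figure D4:**
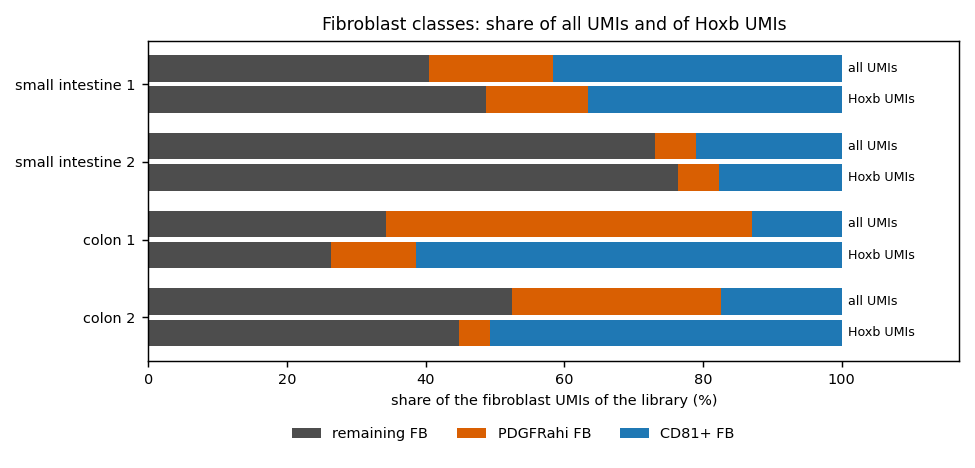
Share in percent (horizontal axis) of all UMIs and of Hoxb UMIs of the fibroblasts of each library (vertical axis) that came from remaining FB, PDGFRαhi FB and CD81+ FB. In colon the CD81+ FB part grows from 12.9% and 17.4% of all UMIs to 61.4% and 50.7% of Hoxb UMIs, and in small intestine it does not grow.

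Colonic CD81+ FB were read by 2 of their markers. *Hoxb2* was at 55.9 and 31.1 CPM in those with an *Ackr4* UMI and no *Pi16* UMI, at 43.3 and 22.1 CPM in those with *Pi16* and no *Ackr4*, and at 10.0 and 16.0 CPM in those with neither. *Hoxb4* was at 57.9 and 28.2 CPM, 11.8 and 24.3 CPM, and 21.1 and 28.1 CPM in the same cells. The order for *Hoxb4* was thus not the same in the libraries. In remaining FB of the colon, *Hoxb2* was at 1.32 and 1.26 CPM in cells with a UMI of *Fgfr2*, a receptor of fibroblast growth factors, and at 6.60 and 6.44 CPM in cells without. By *Thy1*, which encodes CD90, it was at 4.38 and 3.40 CPM with a UMI and at 2.91 and 5.90 CPM without, with no common order.

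Counting cells gave the same picture. After each cell was thinned to 2000 UMIs, with shallower cells left out, *Hoxb2* was found in 7.63% and 5.16% of small intestinal remaining FB and in 0.758% and 0.974% of colonic ones. In PDGFRαhi FB these shares were 11.6% and 11.4% against 0.126% and 0.125%, and in CD81+ FB 4.77% and 4.75% against 6.53% and 4.83%. *Hoxb4* was found in 14.9% and 13.9% of remaining FB in small intestine against 1.69% and 2.16% in colon, and in 13.3% and 9.73% of CD81+ FB against 4.69% and 4.92%. The order of classes and intestines was that of the CPM.

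Plasma cells of small intestine replicate 1 served as the measure of free RNA. They held 0 UMIs of *Hoxb2* to *Hoxb9* among 1573250, which allows up to 1.91 CPM in these cells. *Hoxb4* was seen in 0 of 57 cells, which allows a detected UMI in up to 5.26% of such cells at their depth. Their median depth was 27153 UMIs. Free RNA adds UMIs per droplet and so takes a larger share in shallower cells, and 1.91 CPM is no limit for the other classes. Immune cells of that library (37 cells) held 5 UMIs of *Hoxb4* (28.6 CPM) and 2 of *Hoxb5*. In the other 3 libraries at most 4 cells passed either gate, so free RNA could not be measured there. Colonic levels in PDGFRαhi FB such as 0.695 CPM cannot be told apart from free RNA and are not read as expression.

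Without thinning, a UMI of any *Hoxb* gene was found in 62.2% and 34.3% of small intestinal remaining FB and in 7.80% and 6.34% of colonic ones. For CD81+ FB these shares were 63.4% and 35.9% against 41.7% and 25.4%, and for PDGFRαhi FB 66.1% and 32.8% against 3.08% and 1.20%. UMIs of at least 2 different *Hoxb* genes were found in 12.6% and 4.23% of colonic CD81+ FB and in 0.557% and 0.859% of colonic remaining FB. For the share with any *Hoxb* UMI, the deeper replicate 1 library gave the higher value in each class and intestine named here.

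In SMC, the contractile cells of vessel walls and of the muscularis mucosae, the order of the intestines was that of the fibroblasts. SMC counted 42 and 84 cells in small intestine and 147 and 616 in colon. *Hoxb4* had 12 and 15 UMIs (46.2 and 92.4 CPM) in small intestine and 11 and 11 UMIs (10.1 and 6.12 CPM) in colon. *Hoxb2* had 16 and 2 UMIs (61.7 and 12.3 CPM) against 4 and 2, a ratio of 20.5 (7.79 to 63.1). It rested on small intestine replicate 1, without which it was 5.91, and it was 29.6 without small intestine replicate 2, 38.3 without colon replicate 1 and 11.6 without colon replicate 2. *Hoxb6* and *Hoxb7* had UMIs in both small intestinal libraries (3 and 5, 4 and 6) and 0 in colon, at least 18.2-fold and at least 22.8-fold lower there against a floor of 3 UMIs over both libraries. Of the 9 genes only *Hoxb4* had enough UMIs to be tested in SMC between the intestines, and it was not called (log2 fold change -3.01 ± 0.54, adjusted p = 0.134 in edgeR), so 0 of 1 passed, where 0.144% of all 7637 genes did. Its unadjusted p was 0.000928 in edgeR, and DESeq2 called it (0.786% of all genes). With the replicate number as a block edgeR called it too, along with a larger share of all genes. With a library left out its ratio of summed UMIs ran from 6.06 to 12.1.

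Against remaining FB of the same libraries, edgeR called 0 of 8 *Hoxb* genes in SMC of the small intestine, where 8.26% of all genes were called, and 0 of 8 in those of the colon, where 12.3% were. In small intestine 0 and in colon 1 had an unadjusted p under 0.05, as did 24.1% and 39.9% of all genes, and DESeq2 called 0 in both, where it called 8.10% and 10.6%. Without colon replicate 1 edgeR called 1 in colon. The class by intestine term was called for 0 of 8, where 0.377% of all genes were called, with 0 at an unadjusted p under 0.05 (8.87% of all genes) and 0 in DESeq2 (0.422%). In SMC *Dcn* was at 1676 and 2937 CPM in small intestine against 635 and 1209 CPM in colon. The part of fibroblast RNA in the *Hoxb* levels of SMC was not tested.

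Pericytes, the mural cells of capillaries, departed from fibroblasts in the colon. They held *Rgs5*, a pericyte regulator of G proteins, at 5053 CPM in small intestine replicate 1 against 6274 and 5043 CPM in colon, *Dcn* at 371, 1123 and 1184 CPM, and counted 52, 75 and 46 cells. *Hoxb2* was at 51.8 CPM (13 UMIs) in small intestine replicate 1 and at 116 and 86.6 CPM (60 and 9 UMIs) in colon. These colonic values were the highest of *Hoxb2* in any of the 6 main classes, and their counting intervals overlapped that of small intestinal pericytes. *Hoxb4* was at 19.9 CPM (5 UMIs) in small intestine, against 83.0 and 57.7 CPM (43 and 6 UMIs) in colon. *Hoxb5* ran against both, with 47.9 CPM (12 UMIs) against 9.65 and 9.62 CPM (5 and 1 UMIs). Small intestine replicate 2 had 19 pericytes and did not enter, so the intestines were not tested against each other.

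Against remaining FB of the colon, edgeR called 3 of 8 *Hoxb* genes higher in pericytes, where 11.5% of all genes were called. They were *Hoxb2* (4.20 ± 0.35, adjusted p = 1.05e-09 in edgeR), *Hoxb4* (2.69 ± 0.46, adjusted p = 0.000410 in edgeR) and *Hoxb6* (3.66 ± 1.18, adjusted p = 0.0310 in edgeR, from 5 UMIs in 1 of the 75 pericytes of colon replicate 1 and 0 in replicate 2). Which genes were called depended on the colon library left out, and without colon replicate 1 *Hoxb6* fell below remaining FB. Small intestine entered these fits with replicate 1 alone, so its part has no spread of its own, and the p-values take the lone library to vary like the others. In small intestine 0 of 8 were called, where 9.28% of all genes were, with 1 at an unadjusted p under 0.05 (23.8% of all genes) and 1 called by DESeq2 (8.85%). The class by intestine term, under the same assumption, was called for 2 of 8, where 0.271% of all genes were called. It was 3.87 ± 0.53 for *Hoxb2* (adjusted p = 0.000408 in edgeR) and 5.06 ± 0.82 for *Hoxb4* (0.0152), from 13 and 5 small intestinal UMIs, and without colon replicate 1 it was called for 1. Without small intestine replicate 1 it could not be fitted.

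Interstitial cells of Cajal, the pacemaker cells of gut movement, were found in colon (12 and 44 cells). *Hoxb2* was at 160 and 96.6 CPM in them (22 and 18 UMIs), *Hoxb3* at 21.8 and 42.9 CPM and *Hoxb4* at 29.0 and 102 CPM. The *Hoxb2* level was thus also high in this class in both colon libraries, with 0 such cells in small intestine to set it against.

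Endothelium differed from fibroblasts in the genes at the posterior end of the row. *Hoxb9* was at 15.4 CPM (24 UMIs in 23 cells) in small intestine replicate 1 and at 23.2 CPM (29 UMIs in 23 cells) and 83.9 CPM (10 UMIs in 5 cells) in colon replicates 1 and 2. The counting intervals were 9.87 to 22.9, 15.6 to 33.4 and 40.2 to 154 CPM, so only the last stood apart. Of all *Hoxb9* UMIs of these libraries, 100%, 96.7% and 66.7% lay in endothelium. In remaining FB *Hoxb9* had 0 UMIs in both replicate 1 libraries, which put endothelium at least 19.6-fold (small intestine) and at least 43.3-fold (colon) higher against a floor of 3 UMIs per library. In colon replicate 2 the ratio was 968 (206 to 9085), from 10 against 2 UMIs.

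*Hoxb8* was at 14.1 CPM (22 UMIs) in endothelium of small intestine and at 14.4 CPM (18 UMIs) in that of colon replicate 1, with 0 UMIs in that of colon replicate 2. *Hoxb4* was at 63.6 CPM in small intestine, against 64.1 and 67.1 CPM in colon (99, 80 and 8 UMIs). *Hoxb7* was at 29.5 CPM against 43.2 and 16.8 CPM and *Hoxb2* at 21.2 CPM against 17.6 and 8.39 CPM. Endothelial levels of *Hoxb4* and *Hoxb7* were thus close in the replicate 1 libraries of both intestines. Summed over libraries, the ratio of colon to small intestine was 1.00 (0.745 to 1.35) for *Hoxb4* and 1.39 (0.923 to 2.10) for *Hoxb7*, while *Hoxb6* was 2.47-fold (1.20 to 5.38) higher in colon and *Hoxb5* 2.29-fold (1.18 to 4.73) higher in small intestine. Nearly all colonic UMIs were of replicate 1. Only counting error enters these intervals, and with 1 small intestinal library the endothelial levels of the intestines were not tested against each other.

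Against remaining FB, edgeR called 7 of 8 *Hoxb* genes higher in endothelium of the colon, where 21.2% of all genes were called in either direction. The log2 fold change was 2.35 ± 0.37 for *Hoxb4*, 4.89 ± 0.69 for *Hoxb6* and 5.29 ± 0.48 for *Hoxb7*, and *Hoxb2* (1.42 ± 0.47, adjusted p = 0.0188 in edgeR) stayed below the fold limit. Small intestinal endothelium was replicate 1 alone, and its p-values, here and in the class by intestine term, take that library to vary like the others. In small intestine 3 of 8 were called, where 22.2% of all genes were. They were *Hoxb9* and *Hoxb8* (1.77 ± 0.61, adjusted p = 0.0240 in edgeR), both higher, and *Hoxb3* (-1.97 ± 0.67, adjusted p = 0.0242 in edgeR), lower. DESeq2 called 0 of the 8, where it called 18.8% of all genes. More than 1 in 5 of all genes were called in this comparison, which the count of *Hoxb* genes has to be read against.

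The class by intestine term of endothelium was called for 4 of 8, where 0.949% of all genes were called. It was 2.30 ± 0.58 for *Hoxb2* (adjusted p = 0.0468 in edgeR), 2.98 ± 0.48 for *Hoxb4* (0.00337), 5.33 ± 0.88 for *Hoxb6* (0.00144) and 4.31 ± 0.59 for *Hoxb7* (9.94e-05). Nearly all colonic endothelium came from replicate 1. Without it most calls against remaining FB in colon and the calls by the term were lost, and without colon replicate 2 the term passed for more genes. *Hoxb3*, *Hoxb5* and *Hoxb8* fell below remaining FB in colon without colon replicate 1, where few or 0 UMIs are left. Without small intestine replicate 1 the term could not be fitted. Endothelium of colon replicate 2 also held *Rgs5* at 789 CPM and *Dcn* at 168 CPM, against at most 34.7 and 16.7 CPM in the other libraries, and the part of RNA of other classes in its 20 cells was not tested.

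**Figure D5:**
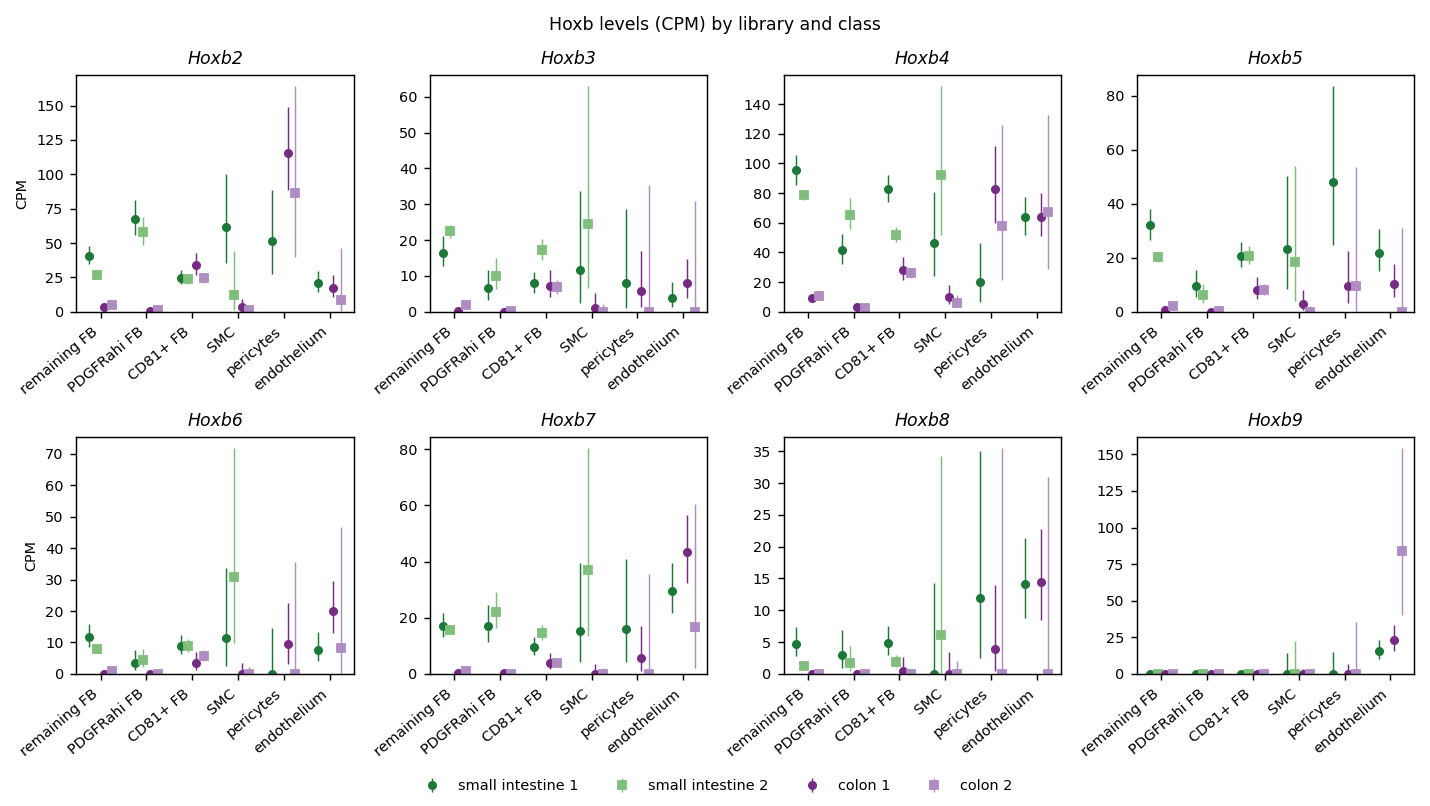
CPM (vertical axes) of Hoxb2 to Hoxb9 by the 6 main classes (horizontal axes) in each library with at least 20 cells of the class, with 95% counting intervals. Hoxb2 to Hoxb7 are low in both colon libraries in remaining FB and PDGFRαhi FB, Hoxb2 is highest among these classes in colonic pericytes (116 and 86.6 CPM), and Hoxb9 is seen in endothelium (15.4, 23.2 and 83.9 CPM).

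Within each gene the 6 main classes took a different order, with interstitial cells of Cajal left aside. *Hoxb2* ran from colonic pericytes and small intestinal PDGFRαhi FB down to colonic PDGFRαhi FB, and the counting interval of colonic pericytes in replicate 2 (39.6 to 164 CPM) overlapped those of small intestinal PDGFRαhi FB (55.8 to 81.2 and 48.7 to 68.9 CPM). *Hoxb4* had no single highest class. In small intestine replicate 1 it was highest in remaining FB (85.8 to 106 CPM), which overlapped CD81+ FB (73.9 to 92.1 CPM) and colonic pericytes of replicate 1 (60.1 to 112 CPM), and in small intestine replicate 2 SMC (92.4 CPM) lay above remaining FB (78.6 CPM). *Hoxb7* was highest in endothelium of colon replicate 1 (32.5 to 56.4 CPM), which overlapped that of small intestine (21.6 to 39.4 CPM). *Hoxb5* was highest in small intestinal pericytes (24.7 to 83.6 CPM), which overlapped small intestinal remaining FB of replicate 1 (26.5 to 38.1 CPM).

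*Hoxb13*, the most posterior gene of the cluster, was confined to 3 cells of the 4 libraries. A plasma cell of small intestine replicate 1 had 1 UMI and an epithelial cell of colon replicate 1 had 1 UMI. A second epithelial cell, of colon replicate 2, had 5 UMIs among 12011, together with 28 UMIs of *Muc2*, the mucin of goblet cells, 28 of *Epcam* and 3 of *Hoxb9*. No mesenchymal class held a *Hoxb13* UMI.

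The rest of the Hox family gave the setting. Of 30 other Hox genes 24 were tested over all fibroblasts, 5 were called higher in colon (*Hoxa9*, *Hoxa10*, *Hoxa11*, *Hoxd9* and *Hoxd11*) and 4 lower (*Hoxc4*, *Hoxc5*, *Hoxc6* and *Hoxc8*), and 20 had an unadjusted p under 0.05. Of all genes 0.381% were called and 11.4% had an unadjusted p under 0.05. The median log2 fold change of the 24 was -0.34. *Hoxc8* was at 46.6 and 37.7 CPM in small intestine against 0.428 and 0.523 CPM in colon, and *Hoxc6* at 29.8 and 25.0 against 1.90 and 2.21 CPM. *Hoxa10* had 0 UMIs in both small intestinal libraries and was at 67.7 and 49.5 CPM in colon.

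The class by intestine term of CD81+ FB set the *Hoxb* genes beside their family. Of the 24 other Hox genes tested 1 was called, *Hoxd8* (2.06 ± 0.40, adjusted p = 0.00627 in edgeR), and 2 had an unadjusted p under 0.05, where 0.588% and 9.91% of all genes did. The median of the term was -0.45 over these 24 genes and 2.40 over the 8 *Hoxb* genes. Among the 24, *Hoxa9*, *Hoxa10*, *Hoxa11*, *Hoxa13*, *Hoxc10*, *Hoxc11*, *Hoxd10*, *Hoxd11* and *Hoxd13* had 0 UMIs in fibroblasts of both small intestinal libraries. No class effect could be measured there for these genes, so the count and the medians do not set the *Hoxb* genes apart from their family. Of the genes next to the cluster and its non-coding genes, *Hoxb3os* was called for this term (1.93 ± 0.49, adjusted p = 0.0422 in edgeR), for CD81+ FB against remaining FB in colon (1.83 ± 0.39) and for colon against small intestine in PDGFRαhi FB (-5.03 ± 0.47, adjusted p = 0.0281 in edgeR). It overlaps *Hoxb2* and *Hoxb3*, and without strand its UMIs cannot be told apart from theirs.

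Lists of genes known to act with or on Hox genes were read over all fibroblasts, where 0.381% of all genes were called and 11.4% had an unadjusted p under 0.05. Of 8 tested neighbours and non-coding genes of the cluster 0 were called by edgeR and 2 had an unadjusted p under 0.05, *Hoxb3os* (-2.38 ± 0.52, adjusted p = 0.190 in edgeR) and *Hoxb5os* (-2.44 ± 0.55, adjusted p = 0.199 in edgeR). Of the 9 TALE homeodomain partners of Hox proteins (Meis, Pbx and Pknox) 0 were called and 1 had an unadjusted p under 0.05. Of 7 tested retinoic acid receptors and degrading or binding proteins 0 were called and 2 had an unadjusted p under 0.05. They were *Rarb* (-1.93 ± 0.35, adjusted p = 0.138 in edgeR) and, in the other direction, *Rarg* (1.27 ± 0.23, adjusted p = 0.130 in edgeR). In PDGFRαhi FB *Rarg* was called higher in colon (3.44 ± 0.35, adjusted p = 0.0313 in edgeR). It was also called for the class by intestine term of that subset (1.89 ± 0.42, adjusted p = 0.00539 in edgeR). Of 15 Polycomb and trithorax genes, which keep Hox genes silent or active, 0 were called and 0 had an unadjusted p under 0.05.

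Over the 22 sums of a library and class, the 3 genes nearest to *Hoxb2* to *Hoxb7* were other members in 10 of 18 places at a pseudocount of 1 and in 4 of 18 at a pseudocount of 10. By Pearson's r of log2(CPM + 1) among 11924 genes, *Hoxb2* was nearest to *Hoxb3os* (0.84), *Hoxb4* (0.79) and *Hoxb5* (0.79). *Hoxb3* was nearest to *Hoxb5* (0.84), *Hoxb7* (0.78) and *Tbc1d24* (0.77), and *Hoxb4* to *Hip1* (0.85), *Hoxb6* (0.82) and *Hoxb2* (0.79). *Hoxb6* was nearest to *Hoxb7* (0.84), *Hip1* (0.83) and *Hoxb4* (0.82). *Hoxb7* was nearest to *Adgrl2* (0.87), *Hip1* (0.87) and *Igtp* (0.85), none of them a Hox gene. *Hoxb9* had an r of -0.18 to 0.40 to the others. These sums share libraries and depth, so the values are descriptions.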

How the data were processed

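Single-cell RNA-seq libraries of sorted lamina propria stromal cells were read as the authors deposited them, as 4 matrices of raw counts (UMIs by gene and barcode) over 28692 gene rows, with 0 columns of other samples. Counts were made with Cell Ranger against mm10 (version 3.0.2 and Seurat 3 in the submitters' processing notes, and 3.0.2 for replicates 1 and 3.1.0 for replicates 2 per the file headers). The chemistry (3′ or 5′ kit) of each library is not given in the sources used here.

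Barcodes under 500 genes or 1000 UMIs, or above 10% mitochondrial UMIs, were dropped. Doublets were removed with scrublet in scanpy 1.11.5 (Python 3.11.15, numpy 2.4.6, scipy 1.17.1) at a score above 0.2, since its automatic threshold failed in a library, which removed 26 (1.42%), 913 (5.98%), 45 (1.85%) and 535 (4.22%) barcodes of small intestine and colon replicates 1 and 2. A cell joined the class with the largest share of its markers detected. Minimums were 5 of 8 pan-fibroblast markers for FB, 3 of 8 more for PDGFRαhi FB and 4 of 8 for CD81+ FB, SMC, pericytes and endothelium, the last 3 also with fewer than 6 pan-fibroblast markers. Ties and mixed cells were left out. These minimums, the doublet score and the limit of 6 were set after the data had been seen. Members and lists were chosen with earlier results of these data known.

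UMIs were summed per library and class with at least 20 cells. Sums were tested in edgeR 4.0.16 (R 4.3.3) by its quasi-likelihood test (limma 3.58.1; filterByExpr, TMM, robust fit, no replicate term between intestines), and with DESeq2 1.42.0 as an alternative. Adjusted p-values are Benjamini-Hochberg over all genes tested, and SE is the absolute log2 fold change divided by the square root of F. With 2 libraries per intestine, each a pool, p-values measure the spread between these libraries, which may be technical. Steps were tested on simulated data. All 9 members were named in each comparison, and of the lists the genes called over all fibroblasts with their counts, with *Hoxd8*, *Hoxb3os*, *Hoxb5os*, *Rarb* and *Rarg* added after their values were seen. The likeness ranking took members and genes with at least 200 UMIs. Ratios of UMIs, levels and shares carry exact 95% intervals that cover counting error only, and a count of 0 was given a floor of 3 UMIs. Positions are of GENCODE vM21 (mm10). Alternatives were another normalization, no low-count filter, doublets kept, at least 1000 genes per cell, a stricter gate, a replicate block, each library left out, and, added after the data were seen, no limit on fibroblast markers. Figures were drawn with matplotlib 3.10.9.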

Additional observations from a re-analysis of the deposited data

Results flagged for a closer look

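The effect of a class against remaining FB differed between the intestines for 13 pairs of a *Hoxb* gene and a class, by the class by intestine term of edgeR (effect in colon minus effect in small intestine, log2 scale). Of all genes the term was called for 0.588% in CD81+ FB, 2.29% in PDGFRαhi FB, 0.271% in pericytes and 0.949% in endothelium. In CD81+ FB the term was 2.80 for *Hoxb2*, 2.62 for *Hoxb3*, 1.71 for *Hoxb4*, 2.41 for *Hoxb5*, 2.87 for *Hoxb6* and 2.40 for *Hoxb7*. In PDGFRαhi FB it was -3.26 for *Hoxb2*. In pericytes it was 3.87 for *Hoxb2* and 5.06 for *Hoxb4*, and in endothelium 2.30 for *Hoxb2*, 2.98 for *Hoxb4*, 5.33 for *Hoxb6* and 4.31 for *Hoxb7*. Pericytes and endothelium of the small intestine are from replicate 1 alone, which is assumed to vary like the other libraries. DESeq2 called 8 terms, and edgeR called fewer than 13 without small intestine replicate 2 or without either colon library. The shares of all genes under these settings are not given here. Without small intestine replicate 1 the terms of pericytes and endothelium could not be fitted, and fewer terms were called in the other classes than with all libraries.

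Outside the stromal classes, *Hoxb13* had 5 UMIs in a single epithelial cell of colon replicate 2, and 0 UMIs in every stromal class.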

How the results depend on the processing

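Of 738 alternative values for single genes, 601 kept direction and side of the threshold, 67 came to pass it, 64 ceased to pass it and 6 changed sign. The cause of these changes was not tested. With colon replicates 1 and 2 left out in turn, the log2 fold change of colon over small intestine in CD81+ FB was -0.043 and 0.35 for *Hoxb2*. Over remaining FB in colon the values were -3.45 and 0.26 for *Hoxb7* in PDGFRαhi FB, -5.44 and 8.20 for *Hoxb6* in pericytes, and -1.64 and 8.74, -6.62 and 4.01, and -6.59 and 5.07 for *Hoxb8*, *Hoxb5* and *Hoxb3* in endothelium, where few or 0 UMIs are left.

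Between the intestines, counts of *Hoxb* genes called depended on the test. Of all genes DESeq2 called 4.06% over all fibroblasts, 4.17% in PDGFRαhi FB, 1.79% in CD81+ FB, 2.86% in remaining FB and 0.786% in SMC. EdgeR called 0.381%, 1.24%, 0.00%, 0.310% and 0.144% in the same order. The shares of all genes under the other settings are not given here, so those counts are no measure of the *Hoxb* genes alone. Over all fibroblasts (0 called) DESeq2 called 7, no low-count filter gave 5 and kept doublets 1. In PDGFRαhi FB (3) DESeq2 gave 6 and no filter 7. In CD81+ FB (0) no filter gave 1. In remaining FB (1) DESeq2 gave 7, no filter 5 and the stricter gate 0. In SMC (0) DESeq2 gave 1, no filter 4, and no limit on fibroblast markers 2. Leaving out a library gave 0 to 3 over all fibroblasts, 0 to 5 in PDGFRαhi FB, 0 to 4 in remaining FB and 0 to 1 in SMC, with a lone library assumed to vary like the others. The count of class by intestine terms (13) was 8 in DESeq2 and 8 to 12 with a library left out. Without small intestine replicate 1, pericytes and endothelium of that intestine could not be fitted. Over PDGFRαhi FB, CD81+ FB and SMC alone the count of terms (7) was 2 in DESeq2 and 2 to 7 with a library left out, and that of class effects (12) was 7 to 12. The count of class effects over all classes (25) stayed within 1.5 times in each alternative that could be fitted.

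With the replicate block the counts were 7 over all fibroblasts, 6 in PDGFRαhi FB, 2 in CD81+ FB, 7 in remaining FB and 1 in SMC. Of all genes the block called 6.19%, 7.63%, 3.28%, 5.14% and 3.02%, against 0.381%, 1.24%, 0.00%, 0.310% and 0.144% without it. Same-numbered libraries deviated together (r = 0.81, 0.79, 0.74, 0.78 and 0.67 in the same order), but there are only 2 numbers and the labels do not say that a number marks a shared experiment, so they share a number and no pairing was assumed.

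Shares of cells with a *Hoxb4* UMI depend on depth. Thinned to 1000 UMIs they were 8.30%, 7.31% and 1.13% in remaining FB of small intestine replicates 1 and 2 and colon replicate 2, and 7.22%, 5.08% and 2.68% in CD81+ FB of these libraries. Without thinning they were 33.6%, 17.5%, 5.01% and 3.47% in remaining FB and 37.8%, 15.3%, 16.1% and 9.79% in CD81+ FB (small intestine, then colon). The stricter gate gave 8.36% in CD81+ FB of small intestine replicate 2. With a pseudocount of 10, 1, 0, 2, 2, 2 and 2 of the 3 nearest genes of *Hoxb2* to *Hoxb7* were kept, and members took 4 of the 18 places in place of 10. RLE size factors moved the median over all genes of SMC against remaining FB in small intestine from -0.17 to -0.04 and that of the SMC term from 0.12 to 0.0013, the shifts above 0.1 under that scaling. UMI counts of *Hoxb8*, *Hoxb9* and *Hoxb13*, and of pericytes, SMC and endothelium, limit what can be told.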
